A study of Mus musculus with 14 samples.

Results

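The 28 genes described here make cholesterol and fatty acids or regulate their synthesis. They were selected by symbol from the 41934 genes of each deposited table, and all 28 were found at both ages, each symbol standing for 1 entry. RNA of whole brain came from 14 male fetuses on a C57BL/6J background. The ages E13.5 and E18.5 are days of embryonic development. At E13.5 there were 4 Dio3+/+ and 2 Dio3-/- fetuses, and at E18.5 there were 3 Dio3+/+ and 5 Dio3-/- fetuses. The genotypes were littermates from crosses of heterozygous parents, with no other allele and no treatment. Dio3 encodes the type 3 deiodinase, which inactivates thyroid hormones, and the Dio3-/- allele carries point mutations that inactivate the enzyme while Dio3 mRNA is still made.

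The value used for each gene is the mean normalized count, that is, the count after division by a size factor for library depth, averaged over all libraries of an age (6 at E13.5 and 8 at E18.5). This mean pools both genotypes. The comparison of Dio3-/- with Dio3+/+, which the study was designed to make, was therefore not analysed here, and neither were the values of single fetuses. The spread between libraries is not given with this mean, so its error is unknown here. Levels and differences are therefore given below as a description, without a test. Neighbours in an order of levels cannot be said to differ. Levels of different genes are compared per kilobase of exon, within 1 age. For the step between the ages, each mean was divided by the sum of all means in its table, and this share is given in ppm, parts of 1000000. The libraries of the ages were normalized separately, and Dio3-/- fetuses made up 33.3% of them at E13.5 and 62.5% at E18.5, so that age and the mix of genotypes cannot be told apart. The libraries were also made in 2 batches with different kits, and which fetus belonged to which batch was not used here. Batch was therefore not separated from age, and its part in the steps between the ages was not tested.

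Cholesterol cannot cross from blood into the brain to any large extent once the blood-brain barrier has formed, and the brain then makes its own. Synthesis starts from acetyl-CoA, runs through mevalonate, the isoprenoid farnesyl diphosphate and squalene to lanosterol, the first sterol, and ends in a series of oxidations and reductions. Fatty acids also start from acetyl-CoA, which is carboxylated, joined into palmitate, elongated and desaturated. Both pathways are controlled by the SREBP transcription factors (encoded by Srebf1 and Srebf2), which are held in the endoplasmic reticulum when sterols are plentiful. In liver, thyroid hormone is known to raise fatty acid synthesis.

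The libraries carried the markers of the labelled tissue. The 4 neuronal markers Tubb3, Dcx, Map2 and Stmn2 summed to a share of 5929 ppm at E13.5 and 7272 ppm at E18.5. Markers of liver and fat, lipid-making tissues outside the brain, were far lower. The 4 hepatocyte markers summed to 10.1 and 4.53 ppm at E13.5 and E18.5, with mean normalized counts of 155 and 22.2 for Afp and 101 and 63.6 for Alb. The 3 adipocyte markers summed to 0.244 and 0.761 ppm. Adipoq, which defines fat cells, had a mean normalized count of 0.662 at E13.5 and 0.758 at E18.5. Other tissues outside the brain had higher shares, with sums at E13.5 and E18.5 of 205 and 19.9 ppm for cartilage markers and 155 and 58.0 ppm for erythroid markers. Dio3 itself had a mean of 99.0 at E13.5 and 129 at E18.5, which pools the genotypes and so cannot check the labels.

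Together the 28 genes held 4798 ppm of the summed means at E13.5 and 5655 ppm at E18.5. Fatty acid synthesis accounted for most of this, with 2821 and 3249 ppm in its 6 genes. A single desaturase gene, Scd2, made up 27.8% of the summed share of the 28 genes at E13.5 and 29.6% at E18.5. With Fasn, Acly and Hmgcs1 it made up 62.8% and 62.1%. Of the other genes Srebf2 had the highest share, with 376 ppm at E13.5 and 328 ppm at E18.5, above the 313 ppm of Acly at the later age. By level, 10 of the 28 at E13.5 and 16 of the 28 at E18.5 lay above the 90th percentile of level per kilobase among all genes with a mean above 0. Against protein-coding genes with a mean of at least 10, 8 of the 28 lay above the 90th percentile at each age.

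**Figure D1:**
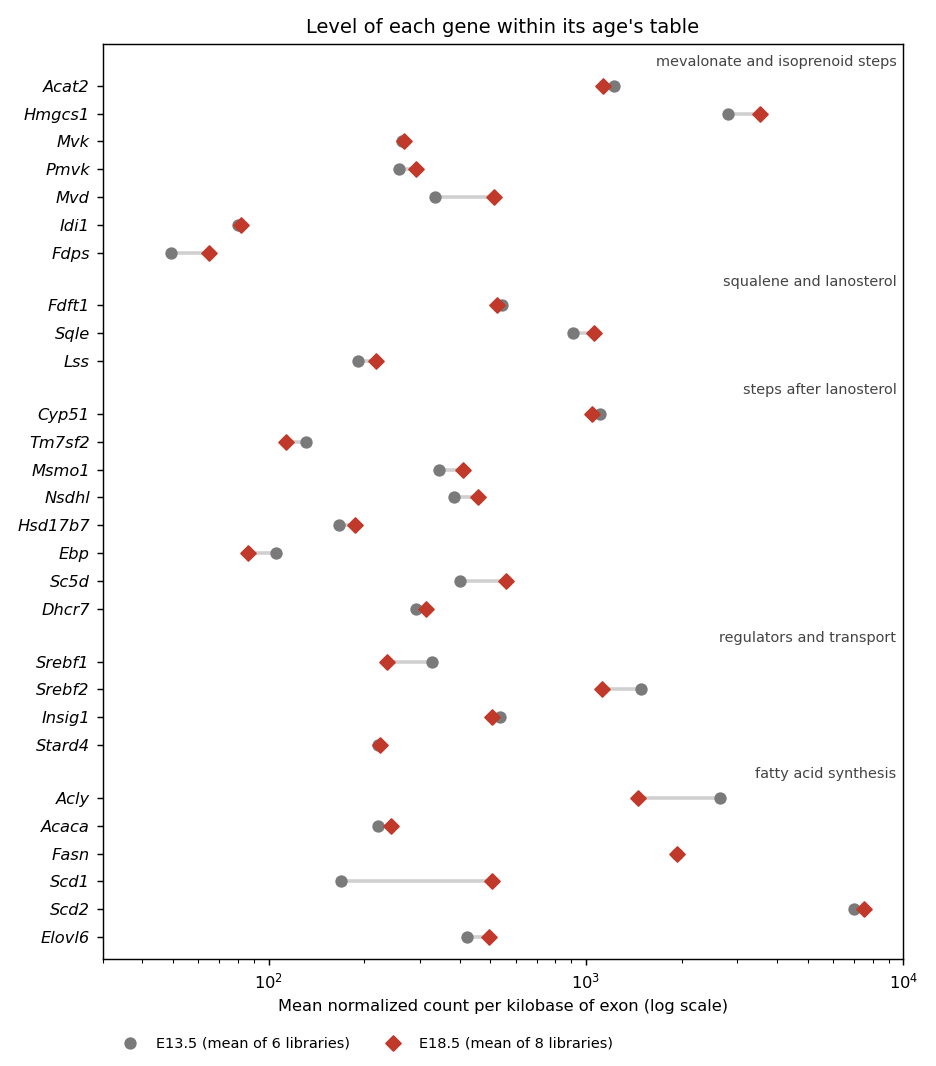
Level of each of the 28 genes, as the mean normalized count per kilobase of exon on a log axis. Grey circles are E13.5 (mean of 6 libraries) and red diamonds E18.5 (mean of 8 libraries), both genotypes pooled. Error bars are absent because the spread between libraries is unknown here. Scd2 lies highest at both ages, at 6983 and 7535, Fdps lies lowest, at 49.4 and 64.8, and Scd1 has the widest gap between the ages.

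In the mevalonate part of the pathway, Hmgcs1 stood far above its neighbours. Hmgcs1 (ENSMUSG00000093930.2, chr13:119690379-119708260 of GRCm38, plus strand) encodes the cytosolic HMG-CoA synthase, and its level was 2795 normalized counts per kilobase at E13.5 and 3529 at E18.5. It ranked second of the 28 genes at both ages. Acat2, the cytosolic thiolase that provides its substrate, followed with 1229 and 1127 per kilobase. The kinases of mevalonate were lower, with 264 and 267 per kilobase for Mvk and 258 and 291 for Pmvk. Mvd (chr8:122433601-122443422, minus strand), the decarboxylase after them, was at 335 per kilobase at E13.5 and 513 at E18.5.

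The lowest levels of all 28 genes, with all exons or the longest transcript as length, were those of the isoprenoid steps. Idi1, the isomerase of isopentenyl diphosphate, was at 80.4 and 81.9 per kilobase, and Fdps, the farnesyl diphosphate synthase, at 49.4 and 64.8. Hmgcs1 was 34.8 times higher than Idi1 at E13.5 and 43.1 times higher at E18.5, and it was 56.6 and 54.5 times higher than Fdps. With the longest transcript as length, Fdps was at 70.4 and 92.3. Its coding transcript has only 1237 bases, against 4208 exon bases. Levels by that length were not computed, so the rank of Fdps and its distance from Hmgcs1 are uncertain. These are also genes whose reads are hard to place. Of the 75-base windows of the Fdps coding transcript, the read length of the libraries, 36.8% also occur letter for letter in transcripts of other genes elsewhere in the genome, and for Idi1 it is 20.7%. The gene sharing most windows is an annotated processed pseudogene in each case (Gm3571 for Fdps, Gm13502 for Idi1). In addition, 26.7% of the exon bases of Fdps lie inside exons of the overlapping gene Gm43738. With the default HTSeq counting used in the study, a read aligned to several places, or to exons of several genes, is not counted. The part of this in the low levels was not tested.

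Shared sequence was uneven over the list. In 4 of the 28 genes at least 10% of the windows of the coding transcript recur elsewhere. Besides Fdps and Idi1 these are Acaca, with 50% (mostly in the pseudogene Gm5182), and Acat2, with 40.7% (mostly in its close paralog Acat3). At least 10% of exon bases overlap another gene in Hmgcs1 (12.1%), Fdft1 (18.3%), Tm7sf2 (12.1%) and Fdps. The levels of these genes are therefore uncertain. Acat3 itself was at 11.96 per kilobase at E13.5 and 7.61 at E18.5, and Acat2 was 103 and 148 times higher.

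**Figure D2:**
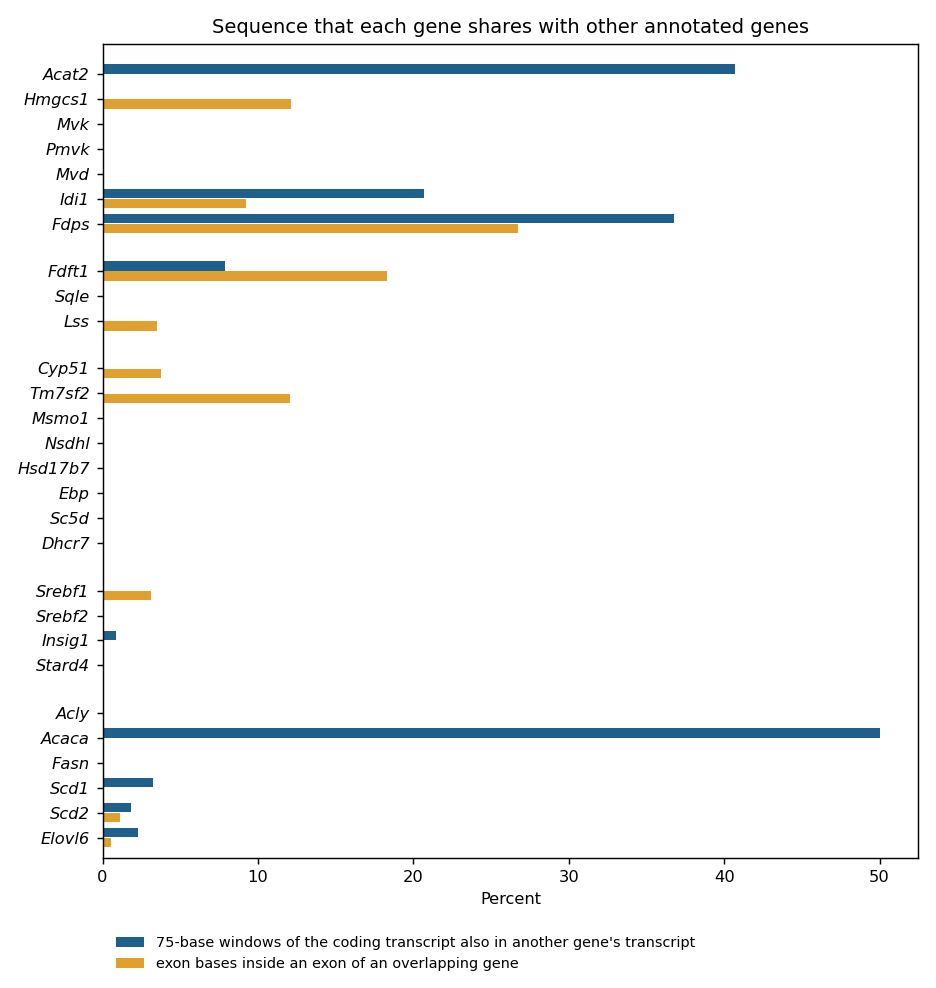
Percent of the 75-base windows of each gene's coding transcript that occur identically in a transcript of another, non-overlapping gene (blue), and percent of its exon bases inside an exon of an overlapping gene on either strand (orange), from the GENCODE M21 annotation of GRCm38. The blue bars are longest for Acaca (50%), Acat2 (40.7%) and Fdps (36.8%), and 10 genes have an orange bar.

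The committed steps of sterol synthesis were led by Sqle. Fdft1, the squalene synthase that draws farnesyl diphosphate into sterols, had a level of 546 per kilobase at E13.5 and 525 at E18.5. Sqle, the epoxidase of squalene, was at 909 and 1062 per kilobase. Lss, which forms the rings of lanosterol, was at 192 and 218, or 296 and 337 with the longest transcript as its length. The middle gene of these successive steps therefore had the highest level at both ages.

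After lanosterol, Cyp51 was highest. Cyp51, the demethylase of lanosterol, had a level of 1105 per kilobase at E13.5 and 1042 at E18.5. The 8 genes from Cyp51 to Dhcr7 spanned 106 to 1105 per kilobase at E13.5 and 86.3 to 1042 at E18.5. The oxidase Msmo1 (343 and 411) and the dehydrogenase Nsdhl (385 and 458) act one after the other in removing methyl groups. Sc5d (chr9:42251595-42264256, minus strand), a sterol desaturase, was at 400.5 and 559.9 per kilobase, and Dhcr7, the reductase that yields cholesterol itself, at 292 and 312. The levels of Msmo1 and Dhcr7 depended on the length used, and with the longest transcript in place of all exons they were 711 and 850 for Msmo1 and 604 and 645 for Dhcr7. Hsd17b7, a keto reductase, was lower, at 166 and 188. Ebp, a sterol isomerase, was the lowest of the 8, at 106 and 86.3, and Tm7sf2, a sterol reductase, was at 132 and 113. The coding transcripts of Hsd17b7 (1446 bases, against 5104 exon bases) and Tm7sf2 (1471 against 4403) are much shorter than all exons. Levels by that length were not computed, so the places of these 2 genes are uncertain.

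Among the regulators, Srebf2 exceeded Srebf1. Srebf2 (ENSMUSG00000022463.8, chr15:82147181-82205379, plus strand), whose product mainly drives cholesterol genes, was at 1495 per kilobase at E13.5 and 1120 at E18.5. Srebf1 (ENSMUSG00000020538.15, chr11:60199089-60222581, minus strand), whose product mainly drives fatty acid genes, was at 328 and 235. Srebf2 was thus 4.56 times higher at E13.5 and 4.76 times higher at E18.5, and the ratio hardly moved while both levels were lower at the later age. Insig1, which retains the SREBP complex in the endoplasmic reticulum and is itself an SREBP target, was at 534 and 507 per kilobase. Its paralog Insig2 was 2.98 times lower at both ages. Stard4, a carrier of cholesterol between membranes, was at 220 and 225.

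Because these genes are known as SREBP targets, their promoters were searched for 4 short motifs on both strands, in windows from 250 bases before to 50 after each start site (RefSeq, GRCm38.p6). Such windows were found for 22 of the 28 genes. The sterol regulatory element, TCACNCCAC, which SREBPs bind, was found in 1 of the 22 genes, Hmgcs1, and in 1.44% of all 27025 genes with a window. The E box CACGTG, which SREBP1 can also bind, was found in 4 of the 22 (Hsd17b7, Sc5d, Dhcr7 and Insig1) and in 8.09% of all genes. The CCAAT box, CCAAT, bound by the SREBP partner NF-Y, was found in 19 of the 22 and in 41.1% of all genes, and the GC box, GGGCGG, bound by Sp1, in 18 of the 22 and in 38.2%. Among 11328 protein-coding genes with a mean of at least 10 at both ages, the shares were 1.42% for the sterol regulatory element, 11.2% for the E box, 42.6% for the CCAAT box and 68.1% for the GC box. A match describes letters only, and its absence from a window says nothing about binding.

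The 3 promoters below show how these motifs lie in the only gene with the sterol regulatory element and in both a regulator and an enzyme with an E box. Each run is the 250 bases before the start site, 5′ to 3′ on the gene's strand, with matches to any of the 4 motifs in capitals on either strand (CCAAT reads ATTGG, and GGGCGG reads CCGCCC, on the other strand). The Hmgcs1 run is chr13:119690101-119690350 on the plus strand, that of Insig1 is chr5:28071162-28071411 on the plus strand, and that of Sc5d is chr9:42264301-42264550 on the minus strand.
Hmgcs1: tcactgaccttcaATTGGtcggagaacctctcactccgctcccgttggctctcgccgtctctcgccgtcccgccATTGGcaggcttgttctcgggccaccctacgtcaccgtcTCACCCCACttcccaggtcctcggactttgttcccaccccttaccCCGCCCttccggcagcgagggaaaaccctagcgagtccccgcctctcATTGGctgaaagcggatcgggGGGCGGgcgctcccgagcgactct
Insig1: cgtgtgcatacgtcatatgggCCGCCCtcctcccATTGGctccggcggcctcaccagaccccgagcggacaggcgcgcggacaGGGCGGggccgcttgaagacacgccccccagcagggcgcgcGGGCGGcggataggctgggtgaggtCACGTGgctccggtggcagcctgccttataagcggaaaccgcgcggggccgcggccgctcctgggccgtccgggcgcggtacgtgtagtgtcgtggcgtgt
Sc5d: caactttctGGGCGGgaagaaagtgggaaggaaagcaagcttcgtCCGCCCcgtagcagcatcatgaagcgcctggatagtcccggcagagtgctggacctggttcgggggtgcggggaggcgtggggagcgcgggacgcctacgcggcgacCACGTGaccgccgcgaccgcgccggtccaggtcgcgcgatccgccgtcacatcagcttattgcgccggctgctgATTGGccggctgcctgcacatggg
In Hmgcs1 the sterol regulatory element begins at position -137 from the start site, and the first of 3 CCAAT boxes at -237. The E box begins at -101 in Insig1 and at -98 in Sc5d. All 3 runs hold at least 1 CCAAT box and at least 2 GC boxes.

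The fatty acid branch held the most abundant gene of the list, Scd2, and the gene with the widest step between the ages, Scd1. Acly (ENSMUSG00000020917.17, chr11:100476353-100528000, minus strand), which makes cytosolic acetyl-CoA from citrate for both pathways, was at 2638 per kilobase at E13.5 and 1455 at E18.5. Fasn (ENSMUSG00000025153.9, chr11:120805846-120824547, minus strand), the fatty acid synthase, was at 1940 and 1933. Acaca, the acetyl-CoA carboxylase between them, was at 221 and 244, or 396 and 437 with the longest transcript as its length, with the limit on its reads given above. Its mitochondrial counterpart Acacb was 23.3 and 20.2 times lower, or 38.2 and 33.1 times with the longest transcripts. Elovl6, the elongase of palmitate, was at 421 and 493 per kilobase.

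The stearoyl-CoA desaturases, which put the first double bond into saturated fatty acids, differed most. Scd2 (ENSMUSG00000025203.6, chr19:44293674-44306864, plus strand) was at 6983 per kilobase at E13.5 and 7535 at E18.5, above 99.8% and 99.9% of all genes with a mean above 0. Scd1 (ENSMUSG00000037071.3, chr19:44394455-44407879, minus strand) was at 169 and 505. Scd2 was therefore 41.3 times higher than Scd1 at E13.5 and 14.9 times higher at E18.5. The genes are neighbours on chromosome 19, with 87590 bases between them. Scd3 was lower than Scd1, by 11.5 times at E13.5 and 23.2 times at E18.5, and Scd4 had a mean normalized count of only 6.91 and 8.48.

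How well the counts can tell Scd1 from Scd2 depends on their sequences. The coding sequences, of 1065 and 1074 bases, are 89.6% identical when aligned, with a longest identical run of 147 bases. The first 75-base window that is the same in both, at chr19:44401812-44401886 on the minus strand for Scd1 and chr19:44299621-44299695 on the plus strand for Scd2, and the window that differs most, at chr19:44406632-44406706 for Scd1 and chr19:44294967-44295041 for Scd2, are shown because reads of the former fit both genes and reads of the latter fit 1. Capitals mark the 29 of 75 bases that differ in the latter.
Shared window: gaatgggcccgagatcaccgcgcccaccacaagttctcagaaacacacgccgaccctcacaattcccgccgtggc
Scd1 window: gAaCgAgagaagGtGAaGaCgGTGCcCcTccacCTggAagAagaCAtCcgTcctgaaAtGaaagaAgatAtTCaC
Scd2 window: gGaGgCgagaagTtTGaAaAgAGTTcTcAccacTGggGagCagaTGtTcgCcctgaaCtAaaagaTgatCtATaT
Over the whole coding transcripts, untranslated parts included, 3.24% of the windows of Scd1 and 1.80% of those of Scd2 recur in another gene. Most of either transcript is therefore distinct at this read length.

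Between the ages, 24 of the 28 genes had a higher share of the table at E18.5 than at E13.5 and 4 a lower one. Among all 17794 genes with a mean of at least 10 at both ages, 45.7% were higher at E18.5. The median log2 ratio of E18.5 over E13.5 was 0.32 over the 28 genes and -0.06 over all genes. The step was small for most: 4 of the 28 genes were at least 1.5 times higher at E18.5, against 19.5% of all genes, and 1 was at least 1.5 times lower, against 16.3%. Without rescaling, that is on the means as deposited, 18 of the 28 were higher and 10 lower, and 32.8% of all genes were higher. Acat2, Fdft1, Cyp51, Tm7sf2, Insig1 and Fasn then changed direction, and Tm7sf2 also did with 2 of the other 3 scalings.

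**Figure D3:**
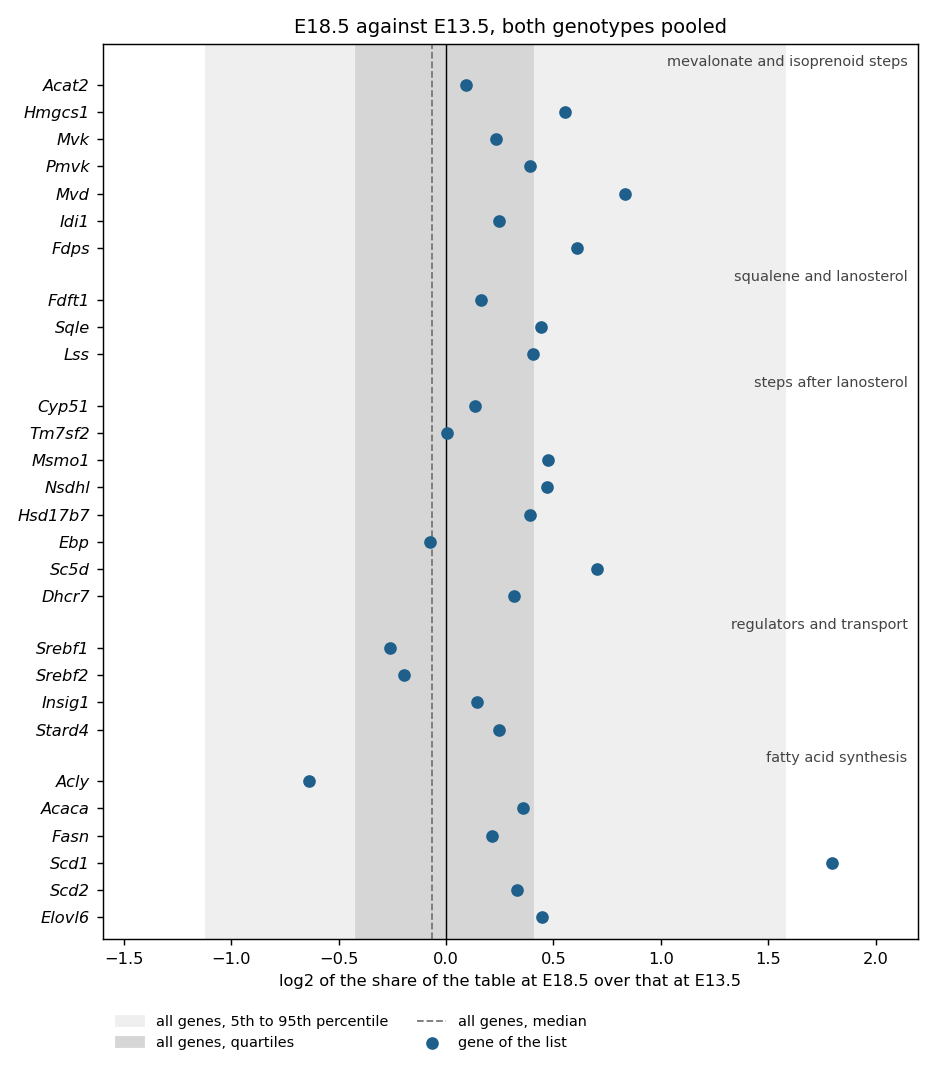
Log2 of each gene's share of the table at E18.5 over its share at E13.5, both genotypes pooled, beside the same quantity over 17794 genes (pale band, 5th to 95th percentile, darker band, quartiles, dashed line, median). Scd1 lies at 1.80, beyond the 95th percentile of 1.58, Acly lies lowest at -0.64, and 24 of the 28 points lie right of 0.

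Scd1 stood apart in this step. Its share was 28.9 ppm at E13.5 and 101 ppm at E18.5, 3.48 times higher, which placed its log2 ratio of 1.80 above 96.3% of all genes. Under all 4 other scalings the log2 ratio of Scd1 lay between 1.58 and 1.86. Scd2, by contrast, was 1.26 times higher, with 1335 and 1676 ppm. The remaining genes at least 1.5 times higher were enzymes of sterol synthesis. Mvd was 1.78 times higher (21.8 and 38.9 ppm), Sc5d 1.63 times (68.2 and 110.9 ppm) and Fdps 1.53 times (7.27 and 11.1 ppm). Fdps passed this limit only narrowly, and its reads are hard to place, as given above. Hmgcs1 lay just below this limit, with 449 and 660 ppm, or 1.47 times. The log2 ratios of the genes that were higher by less than this ran from 0.0026 for Tm7sf2 to 0.55 for Hmgcs1.

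The 4 genes with a lower share at E18.5 were Acly, Srebf1, Srebf2 and Ebp. Acly had the largest difference, with 487 ppm at E13.5 and 313 at E18.5, 1.56 times lower. Its log2 ratio of -0.64 lay above only 14.2% of all genes, and it lay between -0.86 and -0.57 under the other scalings. Srebf1 had a log2 ratio of -0.26 (64.7 and 54.0 ppm) and Srebf2 one of -0.20 (376 and 328 ppm), and both lay within the quartiles of all genes. Ebp, at 8.56 and 8.12 ppm, was close to the median of all genes.

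By role, the 7 genes of the mevalonate and isoprenoid steps were all higher at E18.5, with a summed share 1.39 times that at E13.5. The 3 genes of squalene and lanosterol were also all higher, and their sum was 1.29 times higher. Of the 8 genes after lanosterol 7 were higher, with a sum 1.27 times higher. Of the 6 fatty acid genes 5 were higher, and the sum was 1.15 times higher. Of the regulators and Stard4, 2 of 4 genes were higher, with a sum of 541 ppm at E13.5 and 497 at E18.5. Srebf2 alone held 376 and 328 ppm of this sum. Among all genes with a mean of at least 10 at both ages, 45.7% were higher.

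**Figure D4:**
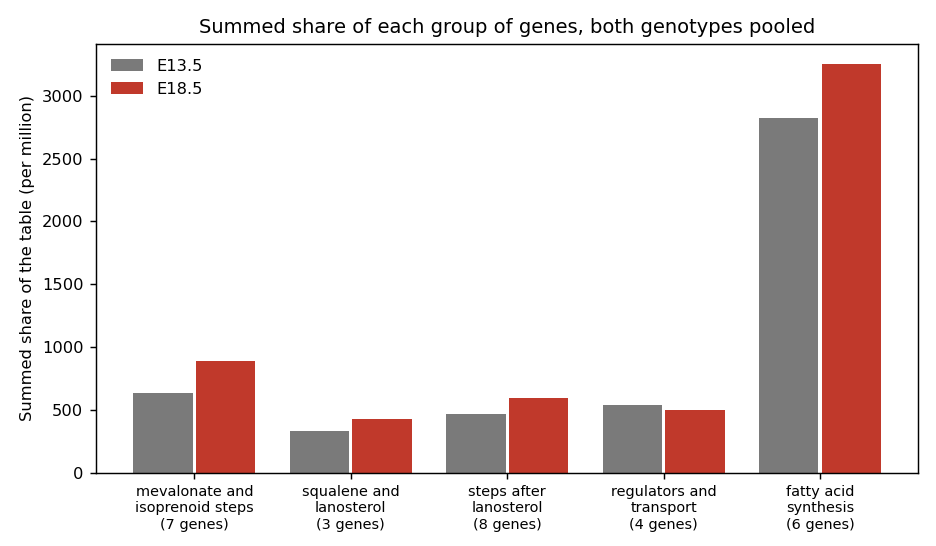
Summed share of the table, ppm, of the 5 groups of genes at E13.5 (grey) and E18.5 (red), both genotypes pooled, without error bars. The fatty acid genes reach 2821 and 3249 ppm, and the group of regulators and transport is the one with the lower bar at E18.5.

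Markers of brain cell types also differed between the ages. All 4 astrocyte markers had a higher share at E18.5, and their sum was 159 ppm at E13.5 and 467 at E18.5. Slc1a3 alone held 134 and 305 ppm of this sum. Gfap, a marker of astrocytes, had a mean normalized count of 4.71 at E13.5 and 501 at E18.5, and Aqp4 of 92.8 and 2112. The study reported higher Gfap in Dio3-/- than in Dio3+/+ brains at E18.5, and the mean used here pools both. All 7 markers of the oligodendrocyte lineage and myelin were higher too, with sums of 134 and 250 ppm, of which Pdgfra held 60.5 and 120. The 4 progenitor markers were all lower, with sums of 1455 and 478 ppm. Of the 4 neuronal markers 3 were higher, with sums of 5929 and 7272 ppm. The 3 microglial markers were all higher (37.0 and 47.1 ppm in sum), as were 2 of 3 endothelial markers (74.0 and 92.7 ppm) and both choroid plexus markers (143 and 527 ppm). Markers of blood, cartilage and liver were mostly lower at E18.5, with 0 of 3 erythroid markers higher (155 and 58.0 ppm), 0 of 2 cartilage markers (205 and 19.9 ppm) and 1 of 4 hepatocyte markers, while the 3 adipocyte markers, at mean normalized counts of at most 10.4, were higher. In whole brain, more cells of a type and more RNA per cell cannot be told apart, and the part of these cell types in the steps of the lipid genes was not tested.

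Other genes of these pathways were more mixed in direction than the 28. Of 37 further genes for sterol and fatty acid synthesis, uptake, storage and their regulation, 22 had a higher share at E18.5 and 15 a lower one. Among all genes with a mean of at least 10 at both ages, 45.7% were higher. The median log2 ratio of the 37 was 0.14. Of the 37, 9 were at least 1.5 times higher, against 19.5% of all genes, and 3 at least 1.5 times lower, against 16.3%. Among the highest per kilobase were the polyunsaturated fatty acid desaturases, Fads2 at 1978 and 2194 and Fads1 at 1248 and 1223. The lowest were Soat2 (0.742 and 0.456), an enzyme of cholesterol storage in liver and gut, and Scd4 (1.83 and 2.25). Next to these came Ppara (4.98) at E13.5 and Mlxipl (4.35) at E18.5, transcription factors of lipid use and of glucose-driven fat synthesis. Paralogs in other compartments differed from the listed genes, with Acat1, the mitochondrial thiolase, at 541 and 860 per kilobase.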

How the data were processed

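Reads of ribosome-depleted RNA (single end, 75 bases) from 2 sequencing batches were trimmed with cutadapt 3.1, aligned to GRCm38/mm10 with STAR 2.5.3a, counted per gene with HTSeq without strand, adjusted between batches with ComBat-seq and normalized with DESeq2 1.30.1 within each age, per the methods of the study and the submitters' processing notes. The signal used here is the mean normalized count that the authors deposited for each gene, averaged over all libraries of an age. The other numeric columns hold the authors' own comparison of the genotypes (fold change, its error, statistic and p-values) and were not used. Columns with values of single libraries that were set aside numbered 0. The depth of single libraries is unknown here. The means of all genes sum to 28582629 at E13.5 and 24565726 at E18.5.

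The members, their groups, the other lists and the measures were chosen with earlier results of these data known. A member is the entry with the listed symbol, and of entries sharing a symbol the highest mean. Exon lengths (union of exons), coordinates, overlaps and transcripts came from GENCODE M21, 1 release before the authors' annotation, matched by identifier without its version for 41897 genes and not for 37. Log2 ratios used a pseudocount of 0.5 on the mean. Of the scalings, only that by the median ratio of the means between the ages was checked on data made with a known factor. Division by the sum of all means, used for the shares, was not checked in this way. All 28 members are named, and of the 37 further genes the 3 highest and lowest per kilobase and paralogs of members. 1 gene that this rule selects is not reported here, and the proteins of Scd1, Scd2, Srebf1 and Srebf2 were not compared. Promoters came from RefSeq. No test was made, since the error of the pooled means is unknown here. Alternatives were other scalings, a pseudocount of 5, a minimum mean of 10, the longest transcript as length and protein-coding genes as reference. Python 3.11.15, pandas 2.3.3, Biopython 1.88 and Matplotlib 3.10.9 were used.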

Additional observations from a re-analysis of the deposited data

How the results depend on the processing

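No paired analysis was possible because the column used holds 1 mean over all libraries of an age, and for the same reason no fetus could be left out in turn. Other settings for a contrast of genotypes were not run. On the means as deposited, without rescaling, the members at least 1.5 times higher at E18.5 numbered 2 instead of 4, and the median log2 ratio of the 28 genes was 0.10 instead of 0.32, while the median of all genes, and each member's ratio with it, moved by -0.22. Since a scaling moves all genes alike, the distance of the members' median from that of all genes, 0.39, is the same under each by construction. With a pseudocount of 5 it was 0.37. With the pseudocount of 5, no member's log2 ratio moved by more than 0.1. Each of the 3 other scalings moved every gene alike, by 0.07, -0.04 or -0.02, so they say nothing about single members. The minimum mean of 10 and the sum over entries sharing a symbol could change no member. Each member has 1 entry and a mean above 10 at both ages. The members at least 1.5 times higher still numbered 5 with scaling by the median ratio of the means, and 3 with totals over protein-coding genes. At E18.5 the members above the 90th percentile of level numbered 8 instead of 16 when protein-coding genes with a mean of at least 10 were the reference. With the longest transcript as length, Scd2 remained highest, 1.89 times above the next gene, Hmgcs1, at E13.5 and 1.61 times at E18.5, against 2.14 times at E18.5 with the union of exons. That length raised the levels of Msmo1, Dhcr7, Acaca and Lss by over 1.5 times.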

Other observations

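Among the 37 further genes of lipid metabolism, the widest steps between the ages, picked after their values were seen, were those of Elovl7, an elongase of long fatty acids, with a log2 ratio of 2.07 (mean normalized counts of 37.4 at E13.5 and 136 at E18.5), and of Thrsp, a lipogenic gene known as a thyroid hormone target in liver, with 1.91 (17.1 and 56.2). Ppara, a transcription factor of fatty acid use, came next with 1.41 (19.1 and 44.2). Cyp46a1, the neuronal enzyme that hydroxylates cholesterol for its removal from brain, had a log2 ratio of 1.27 (211 and 439), and Me1, the malic enzyme that supplies NADPH for fatty acid synthesis, one of 1.19 (441 and 864). Lbr, a nuclear membrane protein that also acts as a sterol reductase at the step of Tm7sf2, had the lowest ratio of the 37, at -1.22 (1681 and 622). By all exons its level was 353 per kilobase at E13.5, against 132 for Tm7sf2, and 130.6 against 113 at E18.5. With the longest transcripts, 479 stood against 188 at E13.5 and 177 against 162 at E18.5. The coding transcript of Tm7sf2 has only 1471 bases, against 4403 exon bases, so this order is uncertain. All of these means pool the genotypes, whose mix differs between the ages, and batch was not separated from age either.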
